A study of Mus musculus with 8 samples.

Results

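Genes of glycolysis and of the response to low oxygen were followed in cultured mouse mesenchymal stromal cells in which Irf7, an interferon regulatory transcription factor, had been knocked down. The gene group was defined by a list of 33 symbols, 22 for glucose and lactate transport, glycolytic enzymes and their regulators, and 11 for hypoxia-response genes. Of these, 31 had a probe set named for them on the array, 1 each, among 19505 genes in all, and Gpi1 and Eno1 were not analysed here. The cells came from inguinal fat pads of male FVB mice aged 12 months and were infected with lentivirus made from the pLKO.1 vector. The groups were shIRF7, in which the vector encodes a short hairpin RNA specific for Irf7 (4 arrays), scramble, in which it carries a scrambled hairpin (2 arrays), and empty vector, with no hairpin (2 arrays). All 3 groups thus had been through lentiviral infection, and all were grown in high-glucose DMEM with GlutaMAX, fetal bovine serum and antibiotics. The labels state no oxygen level, no number of hairpins or clones, and nothing on whether arrays came from separate cultures, infections or animals. A p-value here therefore weighs a difference only against the variation among these 8 arrays, whatever its source. In such bulk RNA, fewer cells of a type and less RNA per cell cannot be told apart.

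Glycolysis breaks glucose down to pyruvate in the cytosol, and lactate dehydrogenase can turn that pyruvate into lactate while restoring the NAD+ that the pathway uses. When oxygen is low, the prolyl hydroxylases encoded by Egln1 and Egln3 no longer mark hypoxia-inducible factor 1 alpha, the product of Hif1a, for destruction, and the factor switches on glucose transporters, many glycolytic enzymes, Vegfa, Adm and other targets through the short DNA core ACGTG or GCGTG. Because this control acts on the stability of the protein, the Hif1a transcript is a poor gauge of it. Stromal cells of fat commonly rely on glycolysis in culture, and several of these genes also respond to growth state, stress and nutrient supply without low oxygen.

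The promoters of 6 members are shown because the results below turn on these genes. Adm, Hk2 and Slc2a1 had low values in most shIRF7 arrays. P4ha2 lay below scramble in all shIRF7 arrays but overlapped empty vector. Ldha and Pgk1 varied mainly among the control arrays. Each runs from 250 bases before to 50 bases after the start of the gene (the first listed start where there were several), 5′ to 3′ as given for the gene's strand in RefSeq sequences of build GRCm38.p6. Capitals mark ACGTG or GCGTG on either strand (CACGT or CACGC where the match lies on the other strand).
Adm, chr7:110627407-110627706, plus strand: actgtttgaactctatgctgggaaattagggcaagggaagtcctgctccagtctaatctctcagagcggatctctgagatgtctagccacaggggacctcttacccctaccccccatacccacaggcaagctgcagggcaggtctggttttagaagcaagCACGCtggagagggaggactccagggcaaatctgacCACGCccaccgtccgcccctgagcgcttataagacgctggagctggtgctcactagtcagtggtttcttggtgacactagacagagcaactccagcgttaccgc
Hk2, chr6:82774405-82774704, minus strand: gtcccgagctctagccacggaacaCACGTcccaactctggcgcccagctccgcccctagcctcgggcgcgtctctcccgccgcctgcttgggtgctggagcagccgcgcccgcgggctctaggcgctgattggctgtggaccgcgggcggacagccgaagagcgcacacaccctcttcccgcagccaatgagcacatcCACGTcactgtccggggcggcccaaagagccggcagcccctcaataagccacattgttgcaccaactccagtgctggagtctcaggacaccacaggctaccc
P4ha2, chr11:54100674-54100973, plus strand: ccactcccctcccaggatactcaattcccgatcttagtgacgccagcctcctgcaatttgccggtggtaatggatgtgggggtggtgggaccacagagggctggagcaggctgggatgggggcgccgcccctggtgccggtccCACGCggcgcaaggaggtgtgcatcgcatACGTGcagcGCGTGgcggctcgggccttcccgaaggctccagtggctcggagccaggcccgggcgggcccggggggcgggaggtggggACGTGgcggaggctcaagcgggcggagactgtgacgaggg
Slc2a1, chr4:119108495-119108794, plus strand: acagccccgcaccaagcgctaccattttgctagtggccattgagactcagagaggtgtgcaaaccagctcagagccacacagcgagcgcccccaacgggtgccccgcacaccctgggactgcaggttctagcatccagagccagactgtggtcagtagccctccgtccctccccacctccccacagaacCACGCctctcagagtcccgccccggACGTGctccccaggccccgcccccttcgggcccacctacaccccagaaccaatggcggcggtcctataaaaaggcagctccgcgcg
Ldha, chr7:46845554-46845853, plus strand: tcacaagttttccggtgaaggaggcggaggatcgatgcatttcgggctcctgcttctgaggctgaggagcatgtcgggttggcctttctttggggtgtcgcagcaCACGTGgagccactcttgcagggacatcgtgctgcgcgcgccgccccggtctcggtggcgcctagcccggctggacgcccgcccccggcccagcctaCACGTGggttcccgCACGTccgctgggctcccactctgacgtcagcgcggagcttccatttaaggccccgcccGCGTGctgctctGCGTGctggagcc
Pgk1, chrX:106186850-106187149, plus strand: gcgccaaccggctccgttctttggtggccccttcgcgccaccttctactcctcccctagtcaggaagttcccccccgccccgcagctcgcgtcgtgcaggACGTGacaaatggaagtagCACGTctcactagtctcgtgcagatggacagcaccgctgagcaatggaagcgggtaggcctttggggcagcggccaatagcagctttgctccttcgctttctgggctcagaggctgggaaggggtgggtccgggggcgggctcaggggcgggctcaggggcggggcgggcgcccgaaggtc

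Among 42 promoters of the 30 measured members found in that table, 34 (81%) held ACGTG or GCGTG on either strand, against 14380 of 32851 promoters of all genes (43.8%). The matches included the E-box CACGTG, which holds ACGTG on both strands, in 5 of the 42 promoters (11.9%, against 7.15% of all). All 10 hypoxia-response genes found there had a promoter with a match, as did 18 of 20 glycolytic genes, against 12628 of 27025 genes in all. The measured member not found there was Ndrg1. The promoters printed above held 2 matches each for Adm, Hk2, Slc2a1 and Pgk1, 4 for P4ha2 and 7 for Ldha, each start position counted and an E-box counted as 2. The core of the interferon-stimulated response element, GAAA, any 2 bases and GAAA again, searched on either strand, to which interferon regulatory factors bind, was present in 1 of the 42 promoters (2.38%), the first listed for Vegfa, against 3.44% of all promoters. These matches are letters in a window and not measured sites. Both ACGTG and GCGTG hold the letters CG. The members were not compared with promoters of like CG content or of expressed genes only, so what the higher share reflects was not tested.

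The targeted gene, Irf7, measured 4.42, 5.66, 6.47 and 6.79 on the log2 scale in shIRF7 replicates 1 to 4, against 9.56 and 9.76 in scramble and 9.55 and 9.61 in empty vector. Every shIRF7 array lay below every control array (log2 difference -3.79, SE 0.48, adjusted p = 0.0692 in limma over all genes; exact two-sided permutation p = 0.0286, the smallest that 4 against 4 arrays allow). Of the stromal markers, 6 of 8 measured were brighter than 8.39, the mean over arrays of the 95th percentile of the negative control probe sets, but the list was not level between groups. Its median log2 difference was -0.56, and 0 of 8 were called (0.0308% of all genes). At an unadjusted p under 0.05, 4 of 8 were lower (4.1% of all genes) and 0 higher (4.01%). The 4 were Thy1 (-2.15, adjusted p = 0.501), Cd44 (-1.34, adjusted p = 0.525), Col1a1 (-0.88, adjusted p = 0.187) and Col1a2 (-0.70, adjusted p = 0.446). The median level of the list was 14.45 to 14.81 in shIRF7 and 14.75 to 15.07 in controls, and its part in the values below was not tested. Pdgfrb differed by 0.019, Eng by -0.42 and Itgb1 by -0.10, and Nt5e was near 3 in all groups (2.97 in shIRF7 and 2.87 in controls). Pdgfra and Ly6a were listed but not measured here. None of the 23 measured markers of endothelial cells, macrophages, adipocytes, lymphocytes and epithelium exceeded 8.39. By the same yardstick 21 of the 31 members were bright. The other 10 were Slc16a3, Hk2, Aldoc, Eno2, Ldhb, Pfkfb3, Pfkfb4, Ankrd37, Car9 and Egln3, for which a log2 difference can understate the change.

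In shIRF7 against both controls, no glycolytic or hypoxia-response gene passed the test. The limma test with Benjamini-Hochberg adjustment over all genes called 0 of 31 members, where 0.0308% of all genes were called (6 of 19505), and the lowest adjusted p of a member was 0.332. At an unadjusted p under 0.05 there were 7 members (22.6%, against 8.12% of all genes). Of these, Hk2, P4ha2, Adm, Slc2a1 and Pfkp were lower in shIRF7 (5 of 31, against 4.1% of all genes) and Aldoc and Pfkm higher (2 of 31, against 4.01%). The median log2 difference was -0.15 over 20 glycolytic members and -0.11 over 11 hypoxia-response members, against 0.0017 over all genes. A difference below 0 was seen in 23 of 31 members (74.2%) and in 49.7% of all genes. With single arrays left out the sign turned for 15 members. The members were chosen with earlier results of these data known. Their shares, here and in the comparisons below, therefore describe the list and do not test it. In 1 member, Aldoc, all 4 shIRF7 values lay above all 4 controls (2.58% of all genes), and in 0 members they all lay below (2.8% of all genes).

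**Figure D1:**
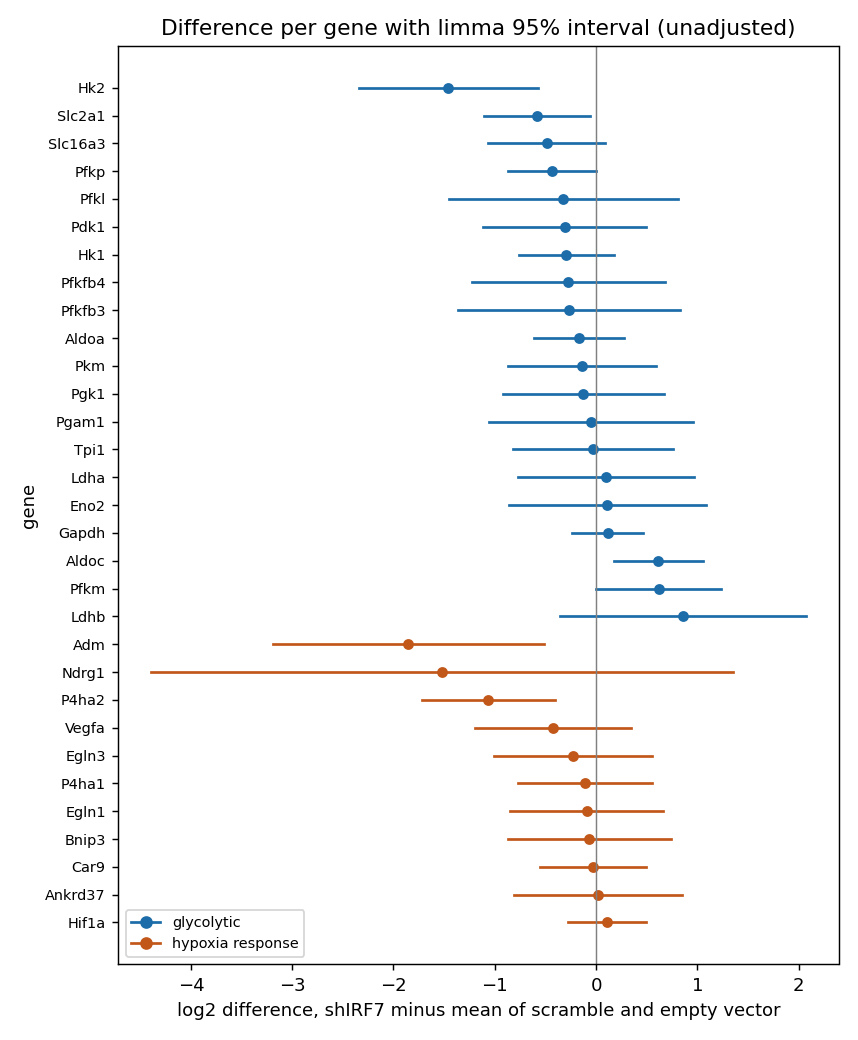
Log2 difference of each member in shIRF7 minus the mean of scramble and empty vector (x axis), with limma's 95% interval before adjustment for multiple tests, genes on the y axis, glycolytic in blue and hypoxia-response in orange. Adm at -1.85, Ndrg1 at -1.52, Hk2 at -1.46 and P4ha2 at -1.06 lie farthest to the left, and the Ndrg1 interval is the widest.

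Against scramble alone, the control that also carries a hairpin, 0 members were called (0.00513% of all genes, 1 gene) and 6 had an unadjusted p under 0.05 (19.4%, against 6.14% of all genes), 4 of them lower (3.27% of all genes) and 2 higher (2.87%). Against empty vector alone 0 members were called (0% of all genes) and 2, Hk2 and Adm, had an unadjusted p under 0.05 (6.45%, against 5.84%), both lower (3.3% of all genes) and 0 higher (2.54%). Between scramble and empty vector themselves 0 members were called (0% of all genes) and 1, P4ha2, had an unadjusted p under 0.05 (3.23%, against 1.93%), higher in scramble (0.779% of all genes), with 0 lower (1.15%). The first 2 of these comparisons share the shIRF7 arrays.

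Glucose enters stromal cells largely through the transporter encoded by Slc2a1 (GLUT1). Slc2a1 measured 14.31, 13.54, 13.59 and 13.62 in shIRF7 replicates 1 to 4, against 14.40 and 14.54 in scramble and 13.92 and 14.52 in empty vector. Replicates 2 to 4 of shIRF7 lay below every control array, while replicate 1 lay among them. The log2 difference was -0.58 (SE 0.23, 95% interval -1.11 to -0.058, 1.5-fold, adjusted p = 0.574). Slc16a3, which encodes the lactate exporter MCT4, was dim, at 3.69 ± 0.205 in shIRF7 and 4.18 ± 0.47 in controls (SD, n = 4 each), in both cases under 4.40, the median of the negative controls averaged over arrays.

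Hexokinase traps glucose in the cell as glucose 6-phosphate, and Hk2 is its inducible isoform. Hk2 measured 7.03, 5.39, 5.83 and 6.51 in shIRF7, against 7.72 and 7.90 in scramble and 7.03 and 7.95 in empty vector. Its 3 lowest values were those of shIRF7 replicates 2 to 4, and shIRF7 replicate 1 stood level with empty vector replicate 1. The log2 difference was -1.46 (SE 0.38, 95% interval -2.34 to -0.58, 2.75-fold, adjusted p = 0.332), -1.62 against scramble and -1.30 against empty vector. Between arrays of the same replicate number, it was -0.34 for replicate 1 and -2.54 for replicate 2. Hk1, the constitutive isoform, was bright and differed by -0.30 (SE 0.20, 95% interval -0.76 to 0.17), with shIRF7 replicate 4 the lowest array at 13.7 and the other 7 arrays between 14.24 and 14.75.

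Phosphofructokinase commits sugar to glycolysis and is built from the liver, muscle and platelet subunits Pfkl, Pfkm and Pfkp. Pfkm measured 11.03, 11.94, 11.86 and 11.79 in shIRF7, against 11.11 and 10.63 in scramble and 11.55 and 10.85 in empty vector. Here too shIRF7 replicate 1 lay among the controls, and the other 3 lay above all of them (log2 difference 0.62, SE 0.27, adjusted p = 0.611). Pfkp measured 11.31, 11.82, 11.63 and 11.12 in shIRF7, against 12.08 and 11.84 in scramble and 11.77 and 11.95 in empty vector. Its groups overlapped only through shIRF7 replicate 2, which exceeded empty vector replicate 1 (log2 difference -0.44, SE 0.19, adjusted p = 0.614). Pfkl had a log2 difference of -0.32 (SE 0.49), and its control arrays spanned 11.5 to 13.6. The 3 subunit genes therefore did not share a direction, and none passed the test.

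The enzymes after phosphofructokinase showed small differences. Tpi1, which interconverts the triose phosphates, differed by -0.030 (SE 0.34), Gapdh, which makes the first NADH of the pathway, by 0.11 (SE 0.15), and Pgk1, which makes the first ATP, by -0.12 (SE 0.34). Pgam1, the phosphoglycerate mutase, differed by -0.050 (SE 0.43) and Pkm, the pyruvate kinase, by -0.14 (SE 0.31). Aldoa, the main aldolase of most tissues, differed by -0.17 (SE 0.19). Adjusted p-values of these 6 genes ranged from 0.896 for Aldoa to 0.99 for Tpi1. Gapdh was the steadiest member, with a range of 0.49 over all 8 arrays. Its 95% interval, -0.24 to 0.47, does not reach a change by 1 log2 unit. Neither do those of Aldoa (-0.61 to 0.27), Pgk1 (-0.92 to 0.67), Pkm (-0.87 to 0.59) and Tpi1 (-0.82 to 0.76). The interval of Pgam1 (-1.06 to 0.96) does. These intervals are unadjusted and take the 8 arrays as independent, which no label states.

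Aldoc, the brain-type aldolase, was the member whose groups did not overlap, at 4.03, 4.17, 4.30 and 4.17 in shIRF7, against 3.24 and 3.63 in scramble and 3.33 and 4.01 in empty vector (log2 difference 0.62, SE 0.19, adjusted p = 0.442). All 8 of its values were under the negative controls' 4.40, which puts the gene at background in every group. Eno2, the neuronal enolase, was steady in the 4 controls, from 6.18 to 6.25, and spread from 5.04 to 7.10 in shIRF7 (log2 difference 0.11, SE 0.42).

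Lactate dehydrogenase is made of Ldha and Ldhb subunits, of which the A form favours lactate production. Ldha measured 15.74, 15.71, 15.54 and 15.62 in shIRF7, against 15.24 and 16.20 in scramble and 14.54 and 16.24 in empty vector. The shIRF7 arrays were tightly grouped in the middle of the control range, with an SD of 0.091, against 0.82 in controls (n = 4 each; log2 difference 0.098, SE 0.37, 95% interval -0.77 to 0.96, adjusted p = 0.978). Ldhb measured 7.95, 8.18, 8.20 and 8.58 in shIRF7, against 7.73 and 6.71 in scramble and 8.79 and 6.24 in empty vector. It was highest on the array where Ldha was lowest, empty vector replicate 1, and lowest where Ldha was highest, empty vector replicate 2 (log2 difference 0.86, SE 0.52, adjusted p = 0.753; 0.22 to 1.5 with each array left out).

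The regulators of the pathway also overlapped between groups. Pdk1 encodes a kinase that keeps pyruvate out of the mitochondrion, and it averaged 9.40 ± 0.60 in shIRF7 and 9.71 ± 0.43 in controls (SD, n = 4 each, log2 difference -0.31, adjusted p = 0.896). Pfkfb3 and Pfkfb4 make fructose 2,6-bisphosphate, the activator of phosphofructokinase. Pfkfb3 had separate levels within shIRF7, with 6.59 and 6.73 in replicates 1 and 4, and 5.13 and 4.90 in replicates 2 and 3. Replicates 1 and 4 lay within the control range of 5.56 to 6.76, and replicates 2 and 3 below it. Pfkfb4 differed by -0.27 (SE 0.41).

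**Figure D2:**
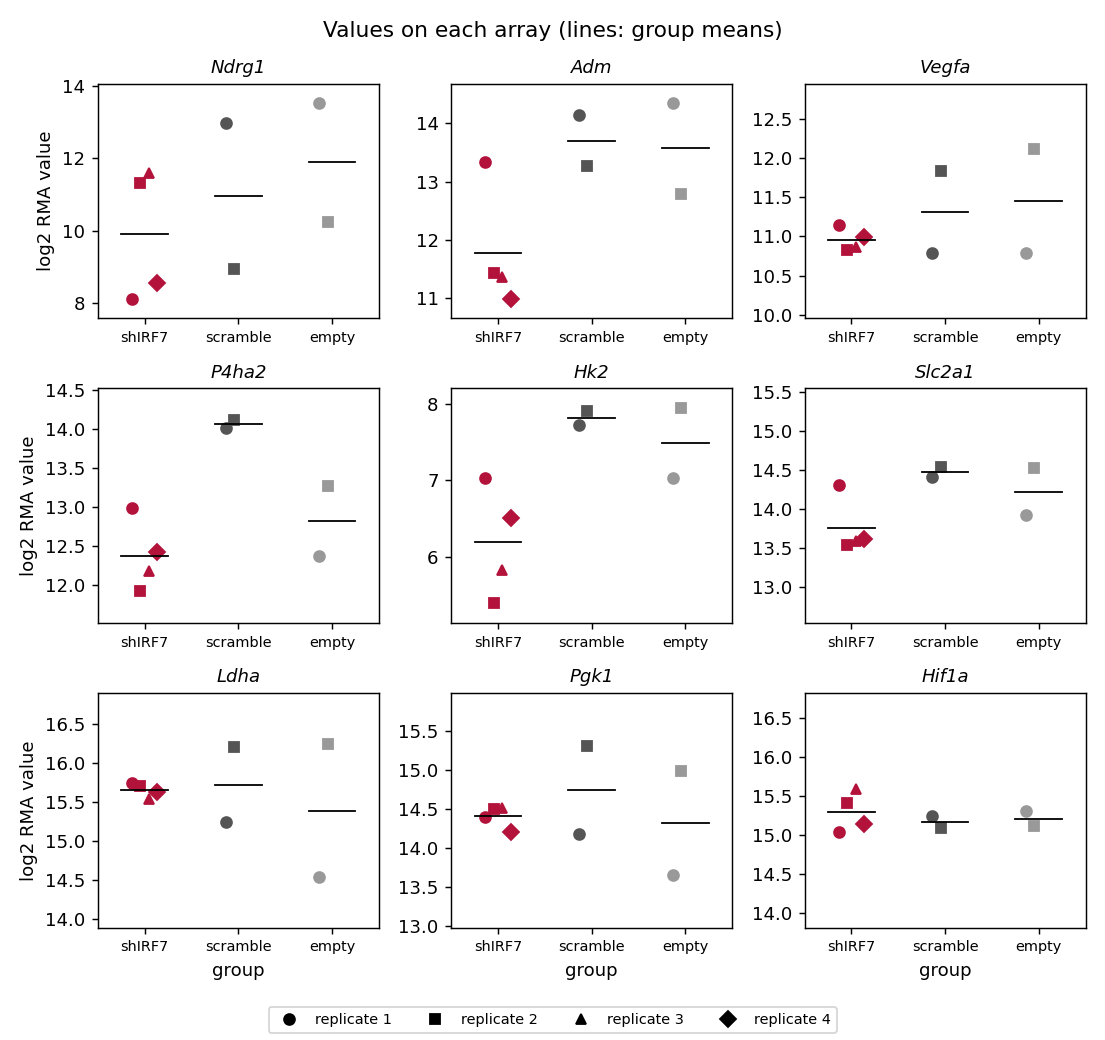
Log2 RMA values (y axes, each panel on its own scale) of 9 members on every array, grouped on the x axis as shIRF7, scramble and empty vector; symbols mark the replicate number and lines the group means. Ndrg1 splits into high and low arrays within each group, Adm is below 11.5 in 3 of 4 shIRF7 arrays, and Ldha and Pgk1 lie apart only within the controls.

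Among the secreted and stress-linked hypoxia targets, Adm, which encodes the vasodilator peptide adrenomedullin, had the largest difference of all members. It measured 13.33, 11.44, 11.36 and 10.99 in shIRF7, against 14.13 and 13.26 in scramble and 14.34 and 12.79 in empty vector. Replicates 2 to 4 of shIRF7 lay below every control, and replicate 1 lay between them. The log2 difference was -1.85 (SE 0.58, 95% interval -3.19 to -0.51, 3.61-fold, adjusted p = 0.457), with -0.90 between arrays of replicate 1 and -1.59 between those of replicate 2. Without shIRF7 replicate 1 it was -2.37 (adjusted p = 0.0965).

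Vegfa, the angiogenic growth factor, measured 11.15, 10.83, 10.86 and 10.99 in shIRF7, against 10.79 and 11.83 in scramble and 10.79 and 12.12 in empty vector. The shIRF7 arrays sat near the lower of the 2 arrays of each control (log2 difference -0.42, SE 0.33, 95% interval -1.20 to 0.35, adjusted p = 0.831). With each array left out in turn the difference ranged from -0.76, without empty vector replicate 1, to -0.090, without empty vector replicate 2.

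Ndrg1 responds to hypoxia, differentiation and stress, and was the most variable member, with a range of 5.39 over the 8 arrays. It measured 8.12, 11.32, 11.58 and 8.55 in shIRF7, against 12.96 and 8.94 in scramble and 13.51 and 10.24 in empty vector. Each group held high and low arrays, and the log2 difference of -1.52 (SE 1.24, 95% interval -4.39 to 1.35, adjusted p = 0.836) was smaller than the SD within shIRF7 (1.81) or within controls (2.18, n = 4 each). Between arrays of replicate 1 the difference was -5.12, and between those of replicate 2 it was 1.73. With each array left out it ranged from -2.53, lacking scramble replicate 2, to -0.51, lacking scramble replicate 1.

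Bnip3, which targets mitochondria for removal, differed by -0.064 (SE 0.35). Ankrd37 and Car9, hypoxia-induced genes for an ankyrin repeat protein and a carbonic anhydrase, were dim. Car9, a common marker of hypoxia, lay between 3.07 and 4.03 in shIRF7 and between 3.10 and 4.07 in controls, under the negative controls' 4.40 on all 8 arrays. Ankrd37 lay between 4.28 and 5.43 in shIRF7 and between 4.45 and 5.61 in controls.

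P4ha1 and P4ha2 encode catalytic subunits of the prolyl hydroxylase that stabilises collagen, and they behaved differently. P4ha2 measured 12.98, 11.92, 12.18 and 12.42 in shIRF7, against 14.01 and 14.11 in scramble and 12.37 and 13.27 in empty vector. All shIRF7 arrays lay below both scramble arrays but overlapped empty vector. The log2 difference was -1.06 against both controls (SE 0.28, adjusted p = 0.355), -1.68 against scramble (adjusted p = 0.371) and -0.44 against empty vector (adjusted p = 0.937), and scramble exceeded empty vector by 1.24 (unadjusted p = 0.0157, adjusted p = 1). P4ha1 averaged 14.21 ± 0.093 in shIRF7 and 14.31 ± 0.60 in controls (SD, n = 4 each, log2 difference -0.11, adjusted p = 0.967).

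Of the oxygen-sensing genes, Hif1a was bright and steady. It measured 15.04, 15.41, 15.59 and 15.14 in shIRF7, against 15.25 and 15.09 in scramble and 15.30 and 15.11 in empty vector. The difference was 0.11 (SE 0.17, 95% interval -0.28 to 0.49, adjusted p = 0.931), with shIRF7 replicates 2 and 3 above every control, replicate 1 below every control and replicate 4 among them. Egln1 differed by -0.091 (SE 0.33), with shIRF7 replicate 1 the highest array at 12.94 and shIRF7 replicate 3 the lowest at 11.49. Egln3, itself induced by hypoxia, differed by -0.23 (SE 0.34).

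Set side by side, the lists were read on each array as the median deviation and as the median level. Relative to the mean of the 4 controls, the median of the glycolytic members was -0.097, 0.032, -0.021 and -0.40 in shIRF7 replicates 1 to 4, against -0.19 and 0.22 in scramble and -0.47 and 0.30 in empty vector. The median of the hypoxia-response members was -0.23, -0.13, -0.15 and -0.30 in shIRF7, against -0.26 and 0.14 in scramble and -0.084 and 0.036 in empty vector. By these deviations both lists overlapped between shIRF7 and the controls. The median level of the hypoxia-response members did not overlap, at 11.15, 11.32, 11.36 and 10.99 in shIRF7, against 11.86 and 11.83 in scramble and 12.04 and 12.12 in empty vector. That level is the value of 1 gene on each array, and not of the same gene on all of them. The median level of the glycolytic members overlapped, at 11.77 to 12.38 in shIRF7 and 11.66 to 12.77 in controls, and that of all members was 11.12 to 11.66 in shIRF7 and 11.77 to 12.12 in controls. The hypoxia-response median difference minus the glycolytic one was 0.045. It became -0.13 with dim genes left out and -0.062 with the replicate number as a block, and ranged from -0.29, without empty vector replicate 2, to 0.030, without empty vector replicate 1, with single arrays left out (-0.22 without shIRF7 replicate 1). The glycolytic median of -0.15 also turned to 0.20 without empty vector replicate 2 and was -0.44 without empty vector replicate 1. Leaving out scramble replicate 1 or 2 gave -0.32 or -0.015, and leaving out shIRF7 replicate 4 gave -0.053. The hypoxia-response median of -0.11 was -0.39, -0.21 and -0.18 when shIRF7 replicates 1, 2 and 3 were left out in turn. Leaving out scramble replicate 1 gave -0.31 and scramble replicate 2 -0.064, and leaving out empty vector replicate 1 gave -0.41. Within the hypoxia group the named targets differed in size, with Adm at -1.85, Ndrg1 at -1.52 and Vegfa at -0.42, and in steadiness, since the SD over shIRF7 arrays was 1.05 for Adm, 1.81 for Ndrg1 and 0.15 for Vegfa.

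**Figure D3:**
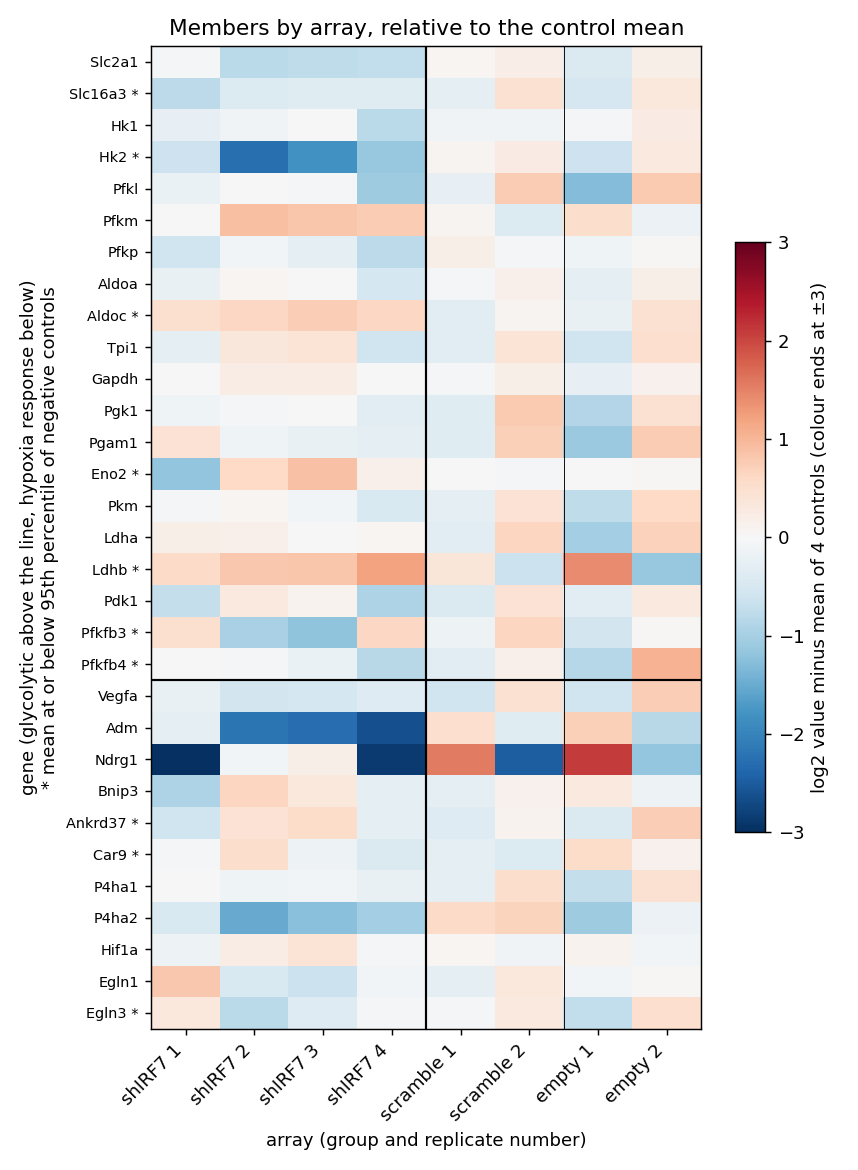
Log2 value of each member (rows) on each array (columns) minus the mean of the 4 control arrays; red is higher, blue lower, and an asterisk marks members not brighter than 8.39 on average. The columns of shIRF7 replicates 2 and 3 look alike, Ndrg1 has the strongest colours, and most glycolytic rows are blue in empty vector replicate 1 and red in replicate 2 of both controls.

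The members also differed between replicates of the same control. Their values on shIRF7 replicates 2 and 3 differed by a median of 0.13, and 30 of 31 agreed within 0.5. The next closest arrays belonged to different groups, empty vector replicate 2 and scramble replicate 2 (median 0.22), while the arrays of empty vector differed by a median of 0.91 and those of scramble by 0.50. Of all 31 members, 21 were higher in replicate 2 of both controls (31.9% of all genes) and 6 lower (37%). The difference of shIRF7 from the controls had opposite signs within replicate 1 and within replicate 2 in 21 of 31 members (67.7%, against 60.6% of all genes). Of 21 bright members, 9 were higher in replicate 2 than in replicate 1 of both controls by over 0.5 (42.9%, against 22.1% of all 6627 bright genes), and 2 were lower (9.52%, against 15.4%). The 9 were Pfkl, Tpi1, Pgk1, Pgam1, Pkm, Ldha, Pdk1, P4ha1 and Vegfa, and the 2 were Adm and Ndrg1. These comparisons rest on 1 array each and have no test.

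Ldha was higher in replicate 2 than in replicate 1 by 1.71 in empty vector and 0.95 in scramble. For Pgk1 the same differences were 1.33 and 1.13, for Pgam1 1.89 and 1.07, and for Pfkl 2.09 and 1.01. Vegfa moved with these enzymes, at 1.34 and 1.04. Ndrg1 went the other way, at -3.27 in empty vector and -4.03 in scramble, as did Adm at -1.55 and -0.87 and Ldhb at -2.55 and -1.02. Hif1a differed little, at -0.19 and -0.16. In shIRF7, replicate 2 minus replicate 1 was -0.03 for Ldha and 3.20 for Ndrg1, unlike the controls. Among the bright members named above, it had the sign of the controls for Adm (-1.90), Pdk1 (1.02), Tpi1 (0.61), Pfkl (0.23), Pkm (0.11) and Pgk1 (0.10). It had the other sign for Pgam1 (-0.57), Vegfa (-0.32) and P4ha1 (-0.13), as for Ldha and Ndrg1.

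**Figure D4:**
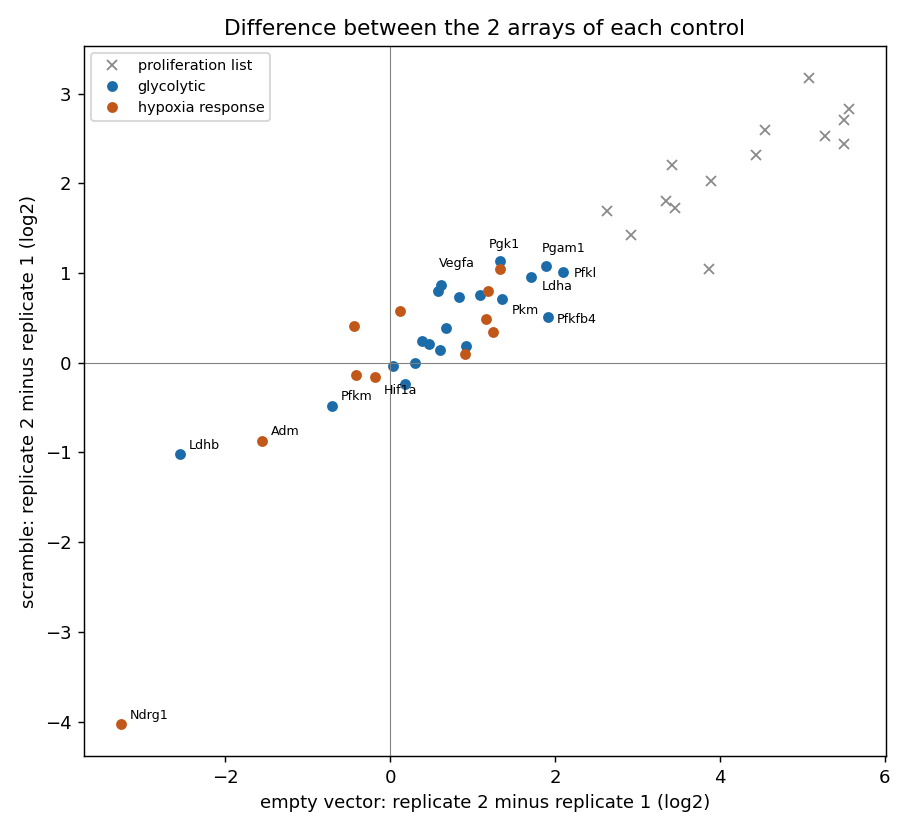
Replicate 2 minus replicate 1 on the log2 scale in empty vector (x axis) and in scramble (y axis) for 20 glycolytic members, 11 hypoxia-response members and 14 proliferation genes. Of the 20 glycolytic genes, 15 were higher in replicate 2 of both controls (medians of the list 0.65 in empty vector and 0.45 in scramble), as was Vegfa. The proliferation genes lie farther out (medians 4.16 and 2.26), and Ndrg1, Adm and Ldhb lie at the lower left.

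Genes of cell division differed between the same arrays. All 14 measured proliferation genes were higher in replicate 2 of both controls, by 2.63 to 5.57 in empty vector and by 1.04 to 3.17 in scramble. Mki67, the marker of cycling cells, measured 14.51, 13.67, 13.69 and 13.62 in shIRF7, against 13.71 and 14.75 in scramble and 10.83 and 14.69 in empty vector. Ccna2, the cyclin of S phase and mitosis, spanned 12.18 to 13.29 in shIRF7 and 8.63 to 14.17 in controls, and Bub1, a spindle checkpoint kinase, 10.59 to 11.25 and 7.91 to 12.34. The list had a median difference of 0.13 in shIRF7 against both controls (0 of 14 called), 2.33 between arrays of replicate 1 and -1.77 between those of replicate 2. The part of growth state in the values of the glycolytic genes was not tested. The negative control probe sets also differed between replicates 1 and 2, with a median of 4.18 to 4.26 in replicate 1 and 4.55 to 4.56 in replicate 2 of all 3 groups. It was 4.545 in shIRF7 replicate 3, near the level of replicate 2, and 4.326 in shIRF7 replicate 4. The part of these negative control levels was not tested either.

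Other genes of these pathways were read from lists that hold no member (Slc2a3 is in the first and in the hypoxia-linked list). Of 27 further genes of glucose and pyruvate metabolism 0 were called, with a median of 0.058. Pdhb, a subunit of the pyruvate dehydrogenase that feeds the citric acid cycle, differed by 0.67 (SE 0.19, adjusted p = 0.379) and was higher in all 4 shIRF7 arrays than in every control. This held for 1 of the 27 genes (2.58% of all genes). Slc2a3, the high-affinity glucose transporter GLUT3, differed by 0.57 (SE 0.22). Pdk2, a kinase that inhibits pyruvate dehydrogenase, differed by 1.47 (SE 0.80), and its lowest values were 8.88 in scramble replicate 2 and 8.94 in empty vector replicate 2, the arrays that were also low in Ldhb. Of 5 measured pentose phosphate genes 0 were called, and Rpe, Rpia and Pgls, enzymes of that pathway, differed by -0.74, -0.52 and 0.41.

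Of 33 further hypoxia-linked genes 0 were called, with a median of -0.13. Ero1a, the oxidase that helps form disulfide bonds in the endoplasmic reticulum, had the lowest adjusted p of these lists. It measured 9.91, 10.41, 10.62 and 10.54 in shIRF7, against 11.41 and 11.63 in scramble and 11.47 and 11.86 in empty vector, with no overlap (log2 difference -1.22, SE 0.20, 95% interval -1.68 to -0.76, adjusted p = 0.138). Plod2, a lysyl hydroxylase that modifies collagen, lay the other way without overlap, at 11.71, 10.45, 10.79 and 11.51 in shIRF7, against 9.71 and 9.77 in scramble and 10.10 and 10.23 in empty vector (log2 difference 1.16, SE 0.29, adjusted p = 0.317). Its relative Plod1, named after its values were seen, also had no overlap (log2 difference 0.91, SE 0.23, adjusted p = 0.318). Stc2, a secreted glycoprotein hormone, was dim and differed by -1.05 (SE 0.52). Between arrays of replicate 1 its difference was 0.18, and between those of replicate 2 it was -1.85. Of the 33 genes, 1 lay below every control in all shIRF7 arrays (2.8% of all genes) and 2 above (2.58%). Of these collagen and secretory genes, Ero1a and P4ha2 were lower and Plod1 and Plod2 higher in shIRF7, and none of the 4 passed the test over all genes. P4ha2 overlapped empty vector but not scramble. P4ha1 (-0.11) overlapped the controls, as did Lox (-0.25) of the hypoxia-linked list, named after its values were seen. Col1a1, a chain of collagen I and a stromal marker, averaged 15.7 in shIRF7 and 16.6 in controls, below every control in all 4 shIRF7 arrays (log2 difference -0.88, adjusted p = 0.187). Of the 8 measured stromal markers, 2 lay below every control (2.8% of all genes). The part of Col1a1 in these values was not tested.

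Of 11 genes that act on hypoxia-inducible factors or partner them, 0 were called. Siah1a, a ubiquitin ligase, measured 6.38, 5.92, 6.07 and 5.67 in shIRF7, against 6.80 and 6.65 in scramble and 7.05 and 6.80 in empty vector (log2 difference -0.81, SE 0.18, adjusted p = 0.263). Siah1a was the 1 gene of the 11 that lay below every control (2.8% of all genes), though it was under the brightness yardstick. Arnt2, a partner subunit, was dim and differed by -1.07 (SE 0.58), with -2.02 between arrays of replicate 1 and -0.51 between those of replicate 2. Vhl, the ligase subunit that recognises hydroxylated hypoxia-inducible factor, differed by 0.42 (SE 0.17, adjusted p = 0.587). Its difference was 0.12 against scramble and 0.73 against empty vector.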

How the data were processed

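Total RNA of 8 samples was labelled with biotin and hybridised to Affymetrix mouse arrays. For each array the authors deposited log2 intensities of probe sets. The submitters' processing notes name RMA and version 1.4.1.46 of Affymetrix Expression Console. The quantile step usual in RMA forces a common distribution on all arrays, so a change of all genes together cannot be seen. Differences of dim probe sets can be compressed by background signal. The log2 scale was read from the values (1.66 to 18.9). The sources used here name no genome build for the probe sets (not given). Of 28846 probe sets, the platform annotation gives 1 symbol for 19572, more for 0 and none for 9274. Symbols were updated through RefSeq of GRCm38.p6, and 55 genes with several probe sets were represented by the one with the highest mean, which left 19505 genes. No array column was left unused (0 columns).

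Means per group were fitted to all 19505 genes and 8 arrays by lmFit and eBayes of limma 3.58.1, under R 4.3.3 (5 residual and 2.68 prior degrees of freedom). shIRF7 was compared with the equally weighted mean of both controls and with each control, and scramble with empty vector. The Benjamini-Hochberg method adjusted p-values across the whole gene table, and 0.05 was the threshold. The fit was tested on simulated data. Every member is named. Values of all arrays are given for members with an unadjusted p under 0.05 or groups that did not overlap, for Hif1a, Ndrg1, Adm, Vegfa, Ldha and Slc2a1, and for Ldhb, added as the partner of Ldha. Of each other pathway list the 3 largest differences are named. Of the cell type markers, all 8 measured ones of stromal cells are named, chosen after their values were seen. The members and lists were chosen with earlier results of these data known. The number of arrays limits the precision.

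Alternatives were leaving out each array, the replicate number as a block, pooling the controls as 1 group, cyclic loess, a trended robust eBayes, dropping dim genes, other ways to treat genes with several probe sets, and, added after seeing the data, shIRF7 replicates 2 and 3 averaged. Same-numbered arrays correlated in their deviations from group means in the controls (r = 0.757) but not across shIRF7 and the controls (r = -0.31 to -0.161), and no label says what a number stands for, so the numbers were not taken to pair the arrays. Differences between arrays of one replicate number are given because the negative controls differed between replicates 1 and 2 in all 3 groups. In shIRF7, replicate 3 was near replicate 2 in this, so that level is not particular to 1 number.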

Additional observations from a re-analysis of the deposited data

Results flagged for a closer look

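In shIRF7 replicate 1, 3 members stood apart from the other shIRF7 arrays by more than the 95% limit of Dixon's test for 4 values, out of 32 genes examined (Irf7 and the members). That limit flags about 1 in 20 where the 4 values are independent, but shIRF7 replicates 2 and 3 differed by a median of only 0.13 over the members. The 3 flags fall on the same array, and the share flagged over all genes is not given here. Slc2a1 was 14.31 there, with the nearest other shIRF7 array at 13.62. Pfkm was 11.03, with the nearest at 11.79. Slc16a3 was 3.387, with the nearest at 3.758, a level below the negative control median. For Slc2a1 and Pfkm the value of shIRF7 replicate 1 lay among the controls. Irf7 was lowest on this same array, at 4.42.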

How the results depend on the processing

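In shIRF7 against both controls 0 members passed the threshold in any alternative run. The same held in the other 3 comparisons, for which the controls as 1 group and the averaged shIRF7 replicates were not run. The 10 dim members have no value with dim genes left out. In the alternatives that gave a value, 16 of 31 members kept their direction, among them Hk2 (-1.74 to -1.19 with each array left out), Adm (-2.37 to -1.47), P4ha2 (-1.29 to -0.84), Slc2a1 (-0.77 to -0.43) and Pfkm (0.45 to 0.83). Of the 16, Ldhb (0.22 to 1.5), Pdk1 (-0.53 to -0.093), Hk1 (-0.39 to -0.13) and Slc16a3 (-0.69 to -0.28) moved by over 1.5 times with single arrays left out, as did Vegfa, Ndrg1, Aldoa (-0.29 to -0.047), Gapdh (0.018 to 0.21) and Hif1a (0.0082 to 0.19). The genes called over the whole array numbered 6, but 3 with dim genes left out, 3 with trend and robust fitting, 28 with both controls as 1 group, 0 with the replicate number as a block, 0 with shIRF7 replicates 2 and 3 averaged, and with single arrays left out 0 (either scramble replicate, shIRF7 replicate 2 or 3) to 28 (shIRF7 replicate 1), with 2 when empty vector replicate 2 was missing and 3 when shIRF7 replicate 4 was. Irf7, at -3.79, passed with both controls as 1 group (-3.79, adjusted p = 0.0299) and without shIRF7 replicate 1 (-3.31, adjusted p = 0.0254); its range with each array left out was -4.10 to -3.31, and it is too dim for the filter on dim genes. That filter moved the hypoxia-response median to -0.27 and its gap to the glycolytic median to -0.13, since fewer genes remained. With each array left out the glycolytic median ranged from -0.44 to 0.20, the hypoxia-response median from -0.41 to -0.064 and the gap from -0.29 to 0.030. With the replicate number as a block, where only replicates 1 and 2 inform the difference, the glycolytic median was -0.079, the hypoxia-response median -0.14 and the gap -0.062, and the sign turned for Tpi1 (0.037), Pgam1 (0.15), Eno2 (-0.30), Ankrd37 (-0.082), Car9 (0.24) and Egln1 (0.17). With shIRF7 replicates 2 and 3 averaged it turned for Eno2 (-0.098), Pfkfb3 (0.0057), Ankrd37 (-0.14) and Egln1 (0.063). With single arrays left out the sign turned for 15 members, whose ranges were -0.30 to 0.24 for Tpi1, -0.52 to 0.42 for Pgam1, -0.15 to 0.54 for Eno2, -0.27 to 0.31 for Ankrd37, -0.30 to 0.22 for Bnip3, -0.21 to 0.11 for Car9, -0.39 to 0.092 for Egln1, -0.54 to 0.086 for Egln3, -0.33 to 0.52 for Ldha, -0.41 to 0.19 for P4ha1, -0.57 to 0.044 for Pfkfb3, -0.75 to 0.21 for Pfkfb4, -0.84 to 0.20 for Pfkl, -0.46 to 0.21 for Pgk1 and -0.48 to 0.20 for Pkm. The cause of these moves was not tested. For the 10 dim members the signal over background limits what can be read from a difference.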
